A study of Mus musculus with 4 samples.

Results

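The 10 genes described here encode signals of the bone marrow stromal niche and factors of adipogenesis, and they were chosen by symbol from the 23946 gene symbols listed in each library. Of these, 5 are niche genes (*Lepr*, *Cxcl12*, *Kitl*, *Vcam1*, and *Angpt1*) and 5 are adipogenic genes (*Adipoq*, *Pparg*, *Cebpa*, *Cebpb*, and *Cebpd*). Their RNA was measured in skeletal stem/progenitor cells of wild-type CD-1 mice at postnatal day 3. Each tissue gave 1 library. The tissues were 3 sutures of the skull, the posterior frontal (PF), the sagittal (SAG), and the coronal (COR), beside the growth plate of the tibia (GP). The cells of every library were taken through FACS and sorted again as CD51+;CD200+, without CD105, 6C3, both Thy1 forms (Thy1.1 and Thy1.2), Tie2, Ter119, and CD45. They came from pooled animals, and each dissected suture held osteogenic fronts, suture mesenchyme, dura mater, and periosteum. No gene was altered and no agent was given in any of the 4 groups. Levels are given in FPKM, the sequenced fragments of a gene relative to its transcript length and to the library's size.

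In bone marrow, stromal cells that carry the leptin receptor (*Lepr*) secrete the chemokine CXCL12 and the cytokine stem cell factor (*Kitl*), which retain and maintain hematopoietic stem cells, and they display the adhesion molecule VCAM1 and secrete angiopoietin 1. Many of the same stromal cells carry RNA of adiponectin (*Adipoq*) and can become fat cells. In adipogenesis, C/EBPβ and C/EBPδ act early and bring on PPARγ and C/EBPα, which then hold each other up and switch on the genes of the mature fat cell.

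FPKM of 1 or more was listed for 11402 to 12263 genes per library, and the total FPKM was 447174 to 550958. The number of fragments was not given in the sources used here. The smallest step between low values put the depth of PF at 44.4% of that of SAG, the deepest, with COR at 89.4% and GP at 84.2%, if FPKM was scaled in proportion to fragments. The sorting antigens' genes *Itgav* (CD51) and *Cd200* were at 6.20 to 15.0 and 23.5 to 62.6 FPKM, and of the antigens sorted out, *Ptprc* (CD45), *Tek* (Tie2), and *Thy1* were under 1 FPKM in every library. *Eng* (CD105), however, was at 0.679 to 1.71 FPKM and *Enpep* (6C3) at 1.39 in GP to 7.05 in PF, both highest in PF. The skeletal progenitor markers, 8 genes that include *Prrx1* and *Runx2*, all reached 1 FPKM in some library. *Col1a1* and *Sparc*, main matrix genes of bone, were listed at 0 in COR, so a value of 0 may stand for a failed estimate and is given only as listed at 0. With 1 library per tissue there was no replicate error, no test between tissues was made, and no p-value is given.

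*Cxcl12* was the most abundant of the 10 genes in PF, SAG, and COR, and in GP it was exceeded by *Cebpb* alone. Its level in PF was several times that of any other library. Of the adipogenic genes, *Cebpb* and *Cebpd* were well expressed, with *Cebpd* highest in SAG, while *Pparg*, *Cebpa*, and *Adipoq* did not exceed 1.55 FPKM in any library. A gene was counted as measured where any library listed it at 1 FPKM or above, and by this rule 9 of the 10 genes were measured, with the exception of *Pparg*. *Adipoq* and *Cebpa* passed that rule only through GP, where they were highest, so their difference there was set by the rule. Of the 9, 4 were highest in PF (*Lepr*, *Cxcl12*, *Vcam1*, and *Angpt1*), against 35.2% of all measured genes. *Cebpd* was the 1 gene highest in SAG, where 28.4% of all measured genes were highest, and 0 of the 9 were highest in COR, against 19.9%. GP held the highest value of 4 (*Kitl*, *Adipoq*, *Cebpa*, and *Cebpb*), against 16.4%. COR held the lowest value of *Cxcl12*, *Kitl*, *Angpt1*, *Cebpb*, and *Cebpd*, and GP that of *Vcam1*. PF held that of *Adipoq* (with SAG, both listed at 0), and SAG that of *Lepr* and *Cebpa*. The share of all measured genes that were lowest in each library was not computed, so the lowest values have no background. COR also had the most symbols listed at 0 (8287, against 6768 to 7516 elsewhere). The PF count, 4 of 9, lay near the share of all genes.

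**Figure D1:**
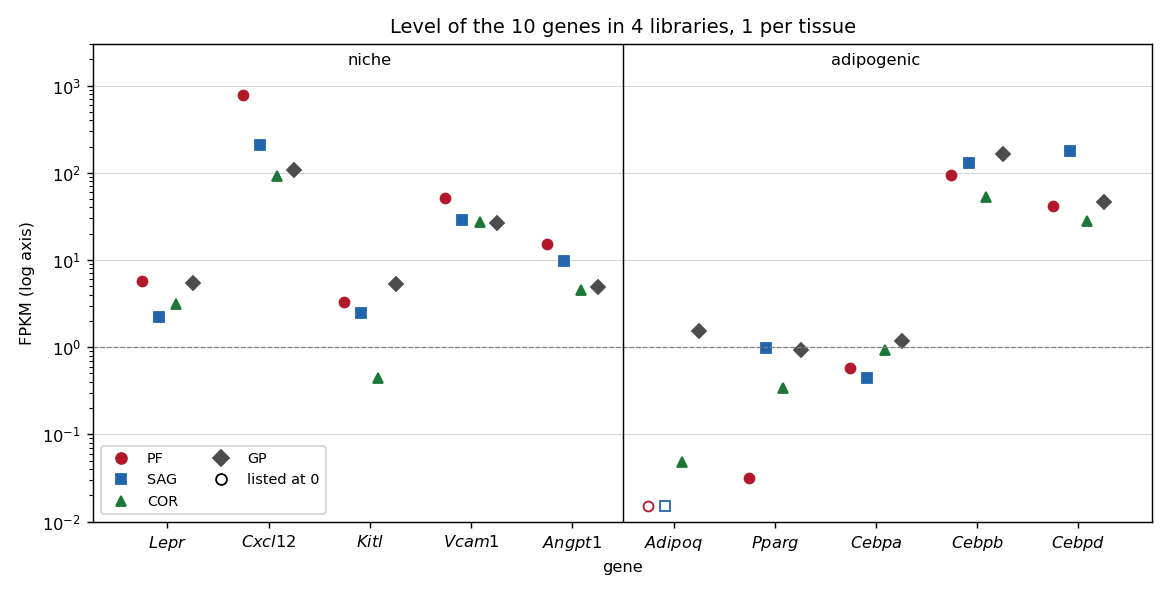
FPKM of each of the 10 genes (log axis) in the 4 libraries, 1 point per library, with niche genes on the left, adipogenic genes on the right and a dashed line at 1 FPKM; open symbols at the foot mark values listed at 0. *Cxcl12* runs from 93.0 FPKM in COR to 773 in PF, while *Pparg* stays under the line in every library.

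Differences between libraries were counted at a ratio of at least 3-fold on the log2(FPKM + 1) scale, which is a log2 ratio of 1.58 and understates the ratio of low genes. From the highest to the lowest library, 4 of the 9 measured genes passed 3-fold (*Cxcl12*, *Kitl*, *Cebpb*, and *Cebpd*), against 24.7% of all measured genes. *Angpt1* lay just outside at 2.96-fold and *Cebpb* just inside at 3.07-fold. *Cebpa* had the narrowest range of the 9, at 1.51-fold, and 23.6% of all measured genes had a narrower one. The median gene of the whole table had a range of 2.02-fold.

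By pair of libraries, 2 of 7 measured members passed between PF and SAG (*Cxcl12* and *Cebpd*, in opposite directions), where 15.7% of all measured genes passed. Between PF and COR it was 1 of 7 (*Cxcl12*; 11.7% of all genes), and between PF and GP 1 of 9 (*Cxcl12*; 12.0%). Between SAG and COR it was 1 of 7 (*Cebpd*; 9.25%), and between SAG and GP 1 of 9 (*Cebpd*; 8.66%). Between COR and GP, the pair with the fewest genes past 3-fold in the whole table (4.40%), *Kitl* and *Cebpb* passed, 2 of 9, both higher in GP. *Kitl*, under 1 FPKM in COR, was measured in that pair only through GP. With FPKM of 1 or more in both libraries the count was 1 of 6, beside 2.5% of all genes. These 6 pairs share libraries and are not independent of each other.

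The median log2 ratio over the measured members was 0.60 between PF and SAG and 0.86 between PF and COR, beside medians over all genes of 0.03 and 0.05. All 7 measured members were higher in PF than in COR on this scale, by 0.56 to 3.04, where 52.3% of all measured genes were higher in PF. *Kitl* was under 1 FPKM in COR, so its direction in each pair with COR was set by the rule. The members not measured between PF and COR, *Pparg*, *Cebpa*, and *Adipoq*, were listed lower in PF. With the GC correction described later, *Cebpb* and *Cebpd* were at 0.20 and 0.06 between PF and COR. Between SAG and COR the median was 1.17, beside 0.02 over all genes. It was 1.07 with FPKM of 1 or more in both libraries, which drops *Kitl*. Against GP the medians were -0.15 for PF, -0.35 for SAG, and -0.63 for COR, beside all-gene medians of 0.03, 0.03, and 0.02. These medians include *Adipoq* and *Cebpa*, whose direction was set by the rule, and with FPKM of 1 or more in both libraries, which drops them, the medians were 0.06 for PF and 0.13 for SAG. For COR the median was then -0.42, and *Kitl* dropped out there as well. Relative to *Gapdh* the median for PF was 0.31. Of the 9 measured members 8 were lower in COR than in GP, where 52.0% of all measured genes were higher in COR. *Adipoq*, *Cebpa*, and *Kitl*, each under 1 FPKM in COR, were among the 8 by the rule. Of these 8, *Cxcl12* and *Angpt1* changed sign relative to *Gapdh*, *Angpt1* with the GC correction described later, and *Cebpa* with quantile normalization. The 1 exception was *Vcam1*, with a log2 ratio of 0.07.

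**Figure D2:**
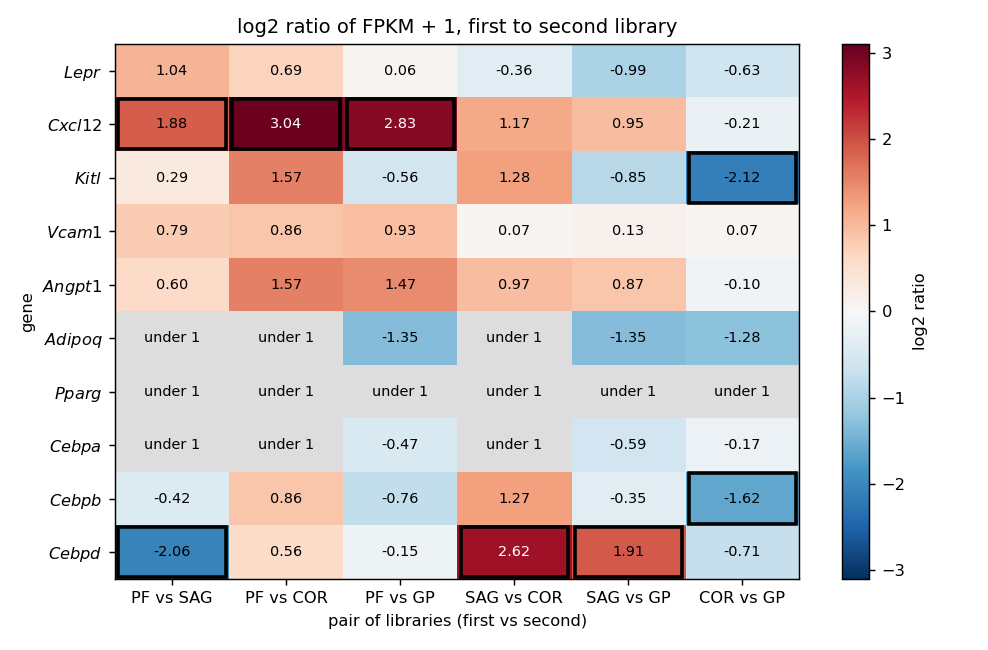
Log2 ratio of FPKM + 1 for the 10 genes (rows) between the first and the second library of each of 6 pairs (columns), with red for higher and blue for lower in the first library; grey cells marked "under 1" had FPKM under 1 in both libraries, and black frames mark the 8 ratios past 3-fold. *Cxcl12* has 3 framed cells, each with PF, and *Cebpd* has 3, each with SAG.

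*Cxcl12* encodes the chemokine that holds hematopoietic stem cells in the marrow and draws cells that carry its receptor CXCR4. The gene lies on chromosome 6 from 117118553 to 117131385 on the plus strand (mm9, 4 exons). It was at 773 FPKM in PF, followed by 209.9 in SAG, 108 in GP, and 93.0 in COR. PF stood apart, SAG came next, and COR and GP lay close together at a ratio of 1.16. Since FPKM is scaled for length, genes can be ranked within a library, and *Cxcl12* was the 72nd most abundant gene in PF, the 365th in SAG, the 1049th in COR, and the 929th in GP. In bulk samples, fewer cells of a type and less RNA per cell cannot be told apart, here or in any result that follows. PF exceeded SAG 3.67-fold, COR 8.23-fold, and GP 7.12-fold on the FPKM + 1 scale. With quantile normalization the log2 ratio of PF to SAG was 1.49, under 3-fold. Of all measured genes, 95.3% had a narrower range over the 4 libraries.

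Promoters of 7 of the 10 genes, with 10 start sites, were matched in the RefSeq table of GRCm38.p6, each with 250 bases before the start and 50 after it. They are given on the plus strand and were searched on both strands for 4 motifs, and a match is a description of letters, not a bound site. The first was the TATA box, spelled TATAAA and found in 13.6% of 32851 promoters. The CCAAT box was found in 37.4%. The GC box, spelled GGGCGG and bound by SP1 and its relatives, was found in 35.7%. The core bound by C/EBP proteins, spelled TTGCNNAA, was found in 10.8%. No motif holds another, though neighbouring matches of a motif may overlap. The promoter of *Cxcl12*, the gene with the highest level of the 10 (chr6:117168285-117168584), is shown with its 5 GC box matches in capitals, some of them joined. It held no match of the other motifs, and its GC content was 64.7% against a median of 52.7% over all promoters.
Cxcl12: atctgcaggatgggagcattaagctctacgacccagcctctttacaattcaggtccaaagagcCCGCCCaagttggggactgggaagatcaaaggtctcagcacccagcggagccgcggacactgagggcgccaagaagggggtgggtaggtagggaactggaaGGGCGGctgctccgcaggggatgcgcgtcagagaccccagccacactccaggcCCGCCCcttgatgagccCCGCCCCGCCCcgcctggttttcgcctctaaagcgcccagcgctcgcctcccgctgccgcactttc

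*Angpt1*, which encodes angiopoietin 1, the ligand that activates the TIE2 receptor of endothelial and hematopoietic stem cells, was at 15.4 FPKM in PF, followed by 9.82 in SAG, 4.93 in GP, and 4.54 in COR. The order of the libraries was that of *Cxcl12*, and COR and GP were again close, at a ratio of 1.09. The log2 ratio of PF to COR was 1.57, just short of 3-fold. The gene lies on chromosome 15 from 42256273 to 42508523 on the minus strand (9 exons), and 718 of its bases are shared with the noncoding gene *Gm17473*, which the files do not list.

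*Vcam1*, the adhesion molecule bound by the integrin α4β1 of blood cells, was at 50.8 FPKM in PF, followed by 28.9 in SAG, 27.6 in COR, and, lowest, 26.2 in GP. PF was 1.76 times SAG, and the other libraries were within a ratio of 1.10 of each other. The gene (chromosome 3, 115812938 to 115832606, minus strand, 9 exons) was thus the most even of the niche genes, with 44.9% of all measured genes narrower in range.

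*Lepr*, the leptin receptor that marks the marrow stromal cells, was low, at 5.67 FPKM in PF, followed by 5.40 in GP, 3.14 in COR, and 2.23 in SAG. PF and GP differed by a ratio of 1.05, and SAG was lowest. Among genes at FPKM of 1 or more, 35.4% were below *Lepr* in PF and 13.5% in SAG. It lies on chromosome 4 from 101390009 to 101487957 on the plus strand (19 exons). *Leprot*, which shares its name and start region with *Lepr* in many annotations and encodes a trafficking protein that holds the receptor inside the cell, was at 172 FPKM in PF, followed by 128 in COR, 125 in GP, and 111 in SAG. In the mm9 annotation used here the gene models did not overlap, with *Leprot* ending 58039 bases before *Lepr*. How reads of shared exons were assigned by the authors' gene model was not tested.

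*Kitl*, the membrane-bound and secreted ligand of KIT, was at 5.29 FPKM in GP, followed by 3.27 in PF, 2.49 in SAG, and 0.442 in COR. COR stood apart at the low end, and the other libraries were within a ratio of 2.12 of each other. GP exceeded COR 4.36-fold on the FPKM + 1 scale and 12.0-fold in FPKM. PF exceeded COR 7.40-fold in FPKM, while on the FPKM + 1 scale the ratio was 2.96-fold and so not counted, though it passed 3-fold with a pseudocount of 0.1 or none, relative to *Gapdh*, and with the GC correction. By the depth estimate above and the longest transcript, the COR value stood for about 87 fragments and the GP value for about 977. The gene lies on chromosome 10 from 99478264 to 99563047 on the plus strand (10 exons).

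Of the receptors of these ligands, 6 of 11 were measured and 2 passed 3-fold from the highest to the lowest library. Of all measured genes 24.7% did so, and this share holds beside the same count for each list that follows. *Itgb1*, the β1 integrin chain that pairs with the VCAM1-binding α4 chain, was at 143 to 264 FPKM, *Adipor1*, an adiponectin receptor, at 88.2 to 126, and *Ackr3*, the scavenging receptor of CXCL12, at 22.7 to 42.9. The signalling receptor *Cxcr4* did not exceed 0.437 FPKM, *Itga4* 0.848, and *Tek*, the angiopoietin receptor, 0.627, and Tie2-bearing cells had been sorted out. *Kit*, the receptor of *Kitl*, was at 11.7 FPKM in SAG, 0.0439 in PF, 0.487 in COR, and 1.05 in GP, so SAG was high and the library highest in its ligand was GP. *Cdh13*, the T-cadherin that binds adiponectin, was at 16.6 in COR and 18.6 in GP, against 0.216 in PF and 1.26 in SAG.

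Of 8 genes of leptin signalling, all were measured and 2 passed 3-fold. *Socs3*, the feedback inhibitor that the leptin receptor and other STAT3-activating receptors bring on, was at 292 FPKM in SAG, 24.3 in PF, 46.2 in COR, and 50.8 in GP. *Lep*, the hormone, was at 2.43 in PF and 0.0301 in SAG and was listed at 0 in COR and GP. *Stat3*, the main transcription factor of the pathway, was at 21.7 to 45.2 FPKM. SAG was thus the library highest in *Socs3* and lowest in both *Lepr* and *Stat3*.

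Of other marrow stromal regulators and niche signals, 18 of 20 were measured and 9 passed 3-fold. *Spp1* (osteopontin, a bone matrix protein that restrains hematopoietic stem cells) was at 8324 FPKM in COR, followed by 6882 in GP, 1649 in PF, and 617 in SAG, a different order from that of *Cxcl12*. *Cd44*, a receptor of osteopontin and hyaluronan, was at 75.1 in COR and 22.2 in GP, the next highest, and *Esm1*, a proteoglycan of activated endothelium, at 346 in SAG and 5.85 to 22.7 elsewhere. *Cdh11*, a mesenchymal cadherin, was at 226 in PF and lowest in SAG. Among the other CXC chemokines, 8 of 13 were measured and 6 passed 3-fold. *Cxcl14*, a chemokine of skin and other barrier tissues, was at 112 FPKM in PF and 105 in GP but at 36.1 in COR and 18.5 in SAG. The neutrophil attractant *Cxcl1* was at 49.8 FPKM in SAG and at only 0.485 in PF. *Cxcl16* was at 21.0 FPKM in PF and 2.81 to 3.89 elsewhere. *Cxcl13*, which draws B cells, was at 5.81 in PF and 0.305 in SAG and was listed at 0 in COR and GP. Between PF and SAG, 5 of 7 measured CXC genes were higher in PF past 3-fold and 1 lower, beside 6.64% and 9.04% of all measured genes. Several of those higher in PF, *Cxcl13* among them, were under 1 FPKM in SAG, and *Cxcl1* was under 1 FPKM in PF. The direction of these genes was set by the rule, so the count is no measure of a difference in this family.

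In the angiopoietin family, 7 of 8 other genes were measured and 5 passed 3-fold. *Angpt2*, the context-dependent antagonist of *Angpt1*, was also highest in PF and next in SAG, at 61.4 FPKM in PF, followed by 21.9 in SAG, 7.91 in COR, and, lowest, 4.86 in GP. *Angpt2* was thus above *Angpt1* in PF, SAG, and COR and about level with it in GP. *Angptl4*, a secreted inhibitor of lipoprotein lipase, was at 257 in PF, followed by 123 in SAG, 91.2 in COR, and, lowest, 76.7 in GP. *Angptl1* and *Angptl7* were highest in GP, at 105 and 29.6 FPKM, and *Angptl2* was at 153 in PF and 322 in GP.

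**Figure D3:**
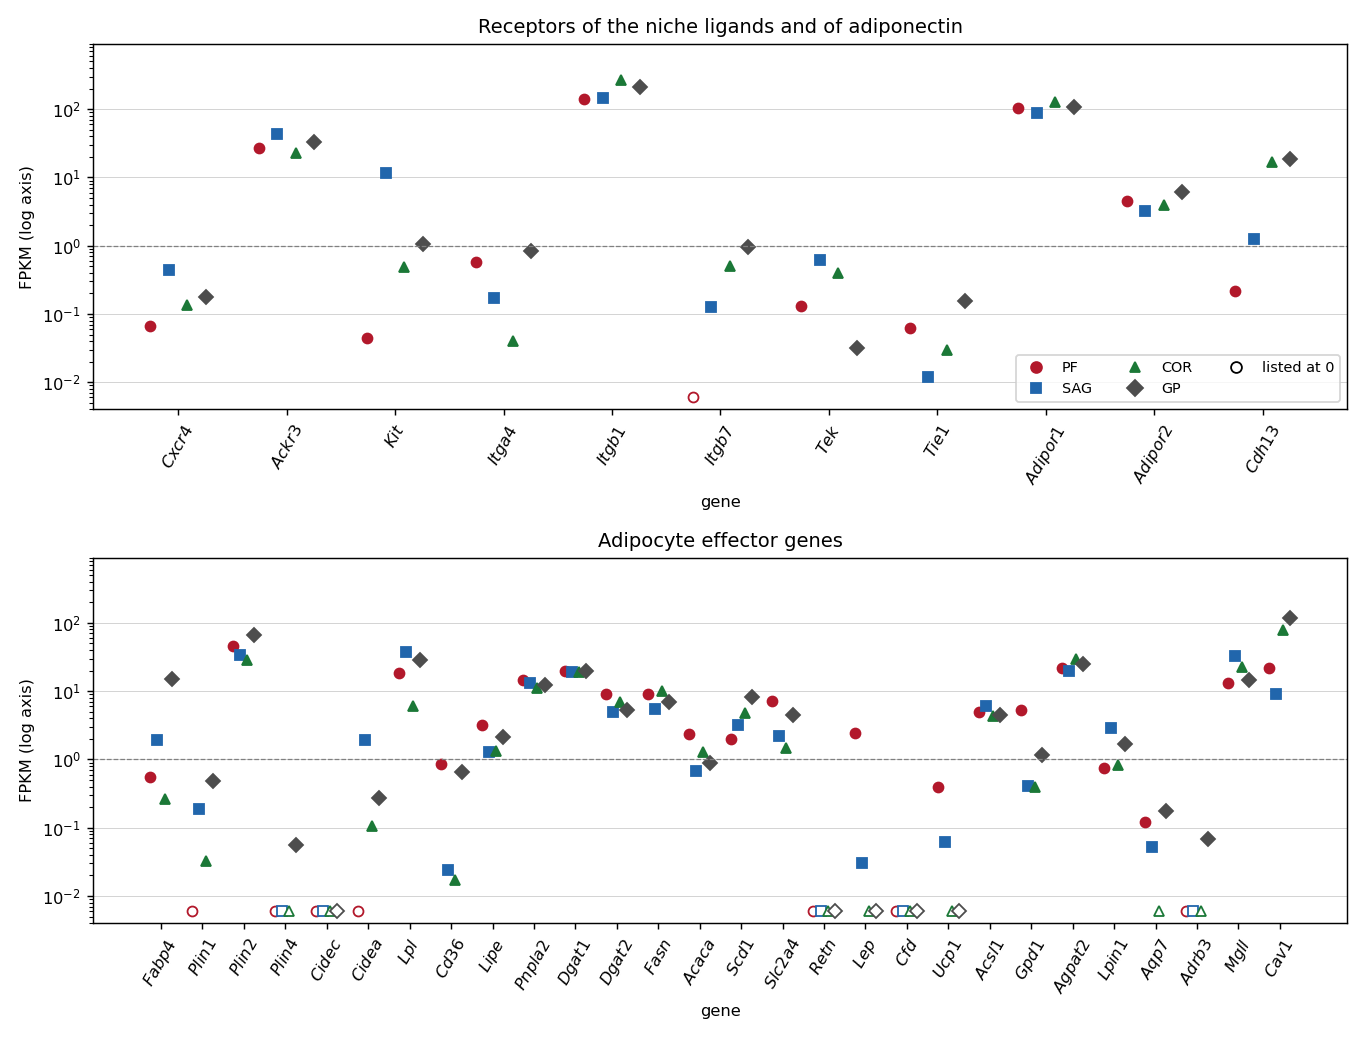
FPKM (log axis) of 11 receptor genes of the niche ligands and of adiponectin (upper panel) and of 28 adipocyte effector genes (lower panel) in the 4 libraries, 1 point per library, with a dashed line at 1 FPKM and open symbols at the foot for values listed at 0. *Kit* is above the line in SAG and just above it in GP, and *Cidec*, *Retn*, and *Cfd* are listed at 0 in every library.

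*Cebpd*, an early and quickly induced C/EBP factor of adipogenesis and of the acute-phase response, was at 176 FPKM in SAG, followed by 46.1 in GP, 41.4 in PF, and 27.8 in COR. SAG stood apart at the high end, and the other libraries were within a ratio of 1.66. SAG exceeded PF 4.18-fold, COR 6.16-fold, and GP 3.76-fold on the FPKM + 1 scale. Relative to *Gapdh*, the log2 ratio of PF to SAG was -1.54, under 3-fold. The gene lies on chromosome 16 from 15887379 to 15888559 on the plus strand, and the annotation used here lists it as a pseudogene, so it drops out where only protein-coding genes are kept.

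*Cebpb*, its partner in the early phase, was at 163 FPKM in GP, followed by 128 in SAG, 95.6 in PF, and 52.3 in COR, above *Cebpd* in every library but SAG. GP exceeded COR 3.07-fold on the FPKM + 1 scale, but the log2 ratio of COR to GP was -1.57 with quantile normalization and -1.41 relative to *Gapdh*, both under 3-fold. The gene has 1 exon on chromosome 2 from 167514415 to 167515918 on the plus strand, and 908 of its bases are also covered by *Tmem189* on the opposite strand. The library kit did not mark strand, so reads of the shared bases cannot be told apart. *Tmem189* was at 77.7 FPKM in PF, followed by 53.7 in COR, 44.5 in GP, and 30.0 in SAG, an order that differed from that of *Cebpb*.

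Of the genes of the acute-phase response and NF-κB signalling, in which both early factors also act, 14 of 16 were measured and 8 passed 3-fold. *Socs3* has been described above and was, like *Cebpd*, highest in SAG. *Nfkbia*, the NF-κB inhibitor, was at 64.5 to 94.2 FPKM and *Tnfrsf1a*, a TNF receptor, at 52.0 to 111. *Icam1*, a relative of *Vcam1* in adhesion, was at 74.4 in PF, followed by 21.3 in SAG, 12.9 in COR, and, lowest, 6.86 in GP, and *Ccl2*, a monocyte chemokine, was at 17.1 in PF and 11.1 in GP against 1.17 in SAG and 2.16 in COR. The list thus had no single high library: against SAG, 3 of 12 measured genes were higher and 3 lower in PF past 3-fold. The shares of all measured genes were 6.64% and 9.04%. Among the lower genes was one under 1 FPKM in PF, whose direction was set by the rule.

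*Pparg*, the master factor of fat cells, was under 1 FPKM in every library, at 0.979 in SAG, followed by 0.919 in GP, 0.343 in COR, and 0.0315 in PF. By the depth estimate these values stood for about 71 fragments in SAG, 56 in GP, 22 in COR, and 1 in PF. SAG and GP were close together, and PF rested on so few fragments that no ratio to it is given. The gene lies on chromosome 6 from 115311239 to 115440419 on the plus strand (8 exons).

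*Cebpa*, the late C/EBP factor that works with PPARγ, was at 1.18 FPKM in GP, followed by 0.931 in COR, 0.576 in PF, and 0.442 in SAG (chromosome 7, 35904312 to 35906945, plus strand, 1 exon). Its values stood for about 26 to 101 fragments. *Adipoq*, the fat cell hormone adiponectin and a mark of marrow stroma, was listed at 0 in PF and SAG and was at 0.0479 FPKM in COR, about 2 fragments, and at 1.55 in GP, about 65 fragments (chromosome 16, 23146609 to 23158101, plus strand, 3 exons). Only GP was above 1 FPKM for either gene, and in GP 6.7% of the genes at FPKM of 1 or more were below *Adipoq*.

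The 2 promoters that follow belong to the fat cell genes under or near 1 FPKM, and they are shown beside that of *Cxcl12* for contrast in their letters. The gene *Pparg* has 3 start sites in the table, and the farthest downstream (chr6:115421816-115422115) is that of the fat-selective isoform. It held 2 C/EBP core matches and 2 CCAAT box matches, shown in capitals, and its GC content was 40.3%. The promoter of *Adipoq* (chr16:23146286-23146585) held 3 CCAAT box matches, shown in capitals, and no C/EBP core match, and its GC content was near the median of all promoters. Neither of the promoters shown held a GC box. Start sites 1 and 2 of *Pparg*, not shown, held 1 and 2 GC box matches and no C/EBP core match, at GC contents of 80.3% and 62.7%. Site 2 also held 1 TATA box match and 1 CCAAT box match.
Pparg: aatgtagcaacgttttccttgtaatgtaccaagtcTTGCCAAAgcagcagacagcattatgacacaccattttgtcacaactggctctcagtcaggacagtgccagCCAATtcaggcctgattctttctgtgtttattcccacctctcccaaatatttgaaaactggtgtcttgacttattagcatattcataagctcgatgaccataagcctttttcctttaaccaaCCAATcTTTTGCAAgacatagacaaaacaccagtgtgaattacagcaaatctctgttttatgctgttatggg
Adipoq: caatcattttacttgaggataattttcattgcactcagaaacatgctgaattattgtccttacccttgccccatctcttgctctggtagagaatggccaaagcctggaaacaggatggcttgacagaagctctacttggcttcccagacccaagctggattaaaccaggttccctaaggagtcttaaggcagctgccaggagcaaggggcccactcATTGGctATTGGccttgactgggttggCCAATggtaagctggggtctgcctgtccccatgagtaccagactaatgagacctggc

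The promoter of *Cebpb*, by comparison, held 5 GC box matches and 1 TATA box match at a GC content of 80.7%, that of *Cebpa* 1 TATA box match, and that of *Kitl* 3 GC box matches and 1 TATA box match. A C/EBP core match was also found at 1 of the 2 start sites of *Lepr*. Promoters of *Vcam1*, *Angpt1*, and *Cebpd* were not analysed here.

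Of the other C/EBP and PPAR family genes, 6 of 9 were measured and 0 passed 3-fold, against 24.7% of all measured genes. The widest range among them was 2.97-fold, just under the cut. *Ddit3* (CHOP, a C/EBP factor that blocks its relatives) was at 34.4 to 57.5 FPKM, and *Rxrb* and *Rxra*, partners of PPARγ on DNA, at 20.6 to 32.2 and 8.51 to 26.8. *Cebpe*, a factor of granulocytes, was listed at 0 in every library.

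Of a list of regulators of adipogenesis, most of which favour it, 18 of 18 were measured and 4 passed 3-fold. *Egr2* and *Klf15* were highest in SAG, at 39.3 and 6.67 FPKM against 0.402 and 0.542 in PF. *Klf5*, which acts with the early C/EBP factors, was highest in GP, at 30.8 against 1.59 in PF. *Igf1* was at 39.1 to 93.0 FPKM, *Srebf1* at 14.6 to 34.3, and *Zfp521*, which instead restrains adipogenesis, at 11.8 to 23.4.

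In a list of regulators of adipogenesis, most of which hold it back, 15 of 17 were measured and 6 passed 3-fold. *Dlk1* (Pref-1, a surface mark of preadipocytes) was at 145 FPKM in GP, followed by 96.4 in PF, 88.9 in SAG, and 6.57 in COR, so COR was lowest, as it was for *Kitl* and *Cebpb*. *Sfrp2*, a secreted Wnt modulator that is not assigned a direction here, was at 1041 in PF and 66.2 to 133 elsewhere. *Wnt10b*, a Wnt ligand that keeps precursors out of the fat lineage, was at 6.70 in COR, 1.60 in GP, and 0.203 in SAG and was listed at 0 in PF. *Klf2* was highest in SAG at 223, and *Tgfb3* was at 61.5 to 121.

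Of the effector genes of fat cells, 19 of 28 were measured and 7 passed 3-fold. *Fabp4*, the fatty acid binding protein of fat cells and capillary endothelium, was at 14.9 FPKM in GP, 1.95 in SAG, 0.554 in PF, and 0.265 in COR. Over the whole list, 7 of the 19 measured genes were highest in PF (3 of them past 3-fold), 5 in SAG (1), 2 in COR (0), and 5 in GP (3). *Lpl*, which frees fatty acids from lipoproteins, was at 37.0 in SAG, 28.1 in GP, 18.2 in PF, and 6.03 in COR. *Cav1*, a coat protein of caveolae also abundant outside fat, stood at 116 in GP, 79.4 in COR, 22.2 in PF, and 9.12 in SAG. *Plin2*, a lipid droplet protein of many cell types, was at 28.6 to 66.8, and *Agpat2*, an enzyme of lipid synthesis, at 19.8 to 29.3. *Cidec*, *Retn*, and *Cfd*, more restricted to mature fat cells, were listed at 0 in every library.

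Markers of other cell types also differed between the libraries, and their part in the levels of the 10 genes was not tested. PF, highest in *Cxcl12*, *Angpt1*, *Vcam1*, and *Lepr*, also had the highest summed FPKM of endothelial markers (51.9, against 13.1 to 25.6 elsewhere), leukocyte markers (34.8, against 5.54 to 11.2), erythroid markers (15.6, with 2.30 in SAG next), and mural cell markers (840.1, against 71.0 to 627). Of these lists, 7 of 10 endothelial, 2 of 10 leukocyte, 2 of 6 erythroid, and 10 of 10 mural genes were measured, and 4, 2, 2, and 7 passed 3-fold. Within the endothelial list *Esam* was highest in PF at 29.5 FPKM while *Kdr* was highest in SAG at 14.9, and *Egfl7* was at 3.81 to 16.1. Within the leukocyte list the sum was mostly *Lyz2*, at 30.2 FPKM in PF, with *Cd68* at 3.63, and the defining markers *Tyrobp* and *C1qb* were listed at 0 in every library. The mural sum of PF came mostly from *Acta2* (PF 530 FPKM, GP 400) and *Tagln* (PF 221, GP 139). By gene, 7 of the 10 mural genes were highest in PF, 2 in GP, *Myh11* among them (GP 19.2, PF 17.35), and 1 in COR. Between PF and GP, 0 of the 10 mural genes passed 3-fold.

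SAG, highest in *Cebpd*, *Socs3*, *Egr2*, and *Klf2*, had the highest sum of choroid plexus markers (5429 FPKM, against 135 to 515) and of chondrocyte markers (4574, against 201 in COR, 215 in PF, and 2657 in GP). Of 9 choroid plexus genes, 8 passed 3-fold, of which 6 were highest in SAG, 1 in COR, and 1 (*Enpp2*) in GP. Of 8 chondrocyte genes, 7 passed 3-fold, of which 5 were highest in SAG and 2 in GP. SAG had the lowest sum of osteoblast markers (886, against 3967 to 6411, with *Col1a1* listed at 0 in COR) and of meningeal markers (944.5, against 1735 to 2183). The meningeal sums were mostly *Lum* and *Ogn*, at 497 and 242 FPKM in SAG and 1213 and 784 in GP. By contrast, the median log2 ratio over measured meningeal genes was 1.39 for SAG to GP and 0.76 for SAG to COR. It was 0.997 for PF to SAG. The osteoblast list had 9 of 9 genes past 3-fold and the meningeal list 7 of 9. *Ttr*, the leading choroid plexus gene, was at 5103 FPKM in SAG but at 9.74 in GP, and *Matn1*, a cartilage matrix gene, was at 838 in SAG and 9.40 in PF. Within the meningeal list *Foxd1* and *Aldh1a2* were highest in PF, at 135 and 62.2 FPKM, and *Ptgds* was highest in SAG at 91.3. Neuron markers summed to 3.83 to 11.2 FPKM, with 5 of 8 measured and 3 past 3-fold, and skeletal progenitor markers to 344 to 2664, with 4 of 8 past 3-fold. Of the 7 sorting markers, 4 were measured and *Enpep* passed 3-fold.

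**Figure D4:**
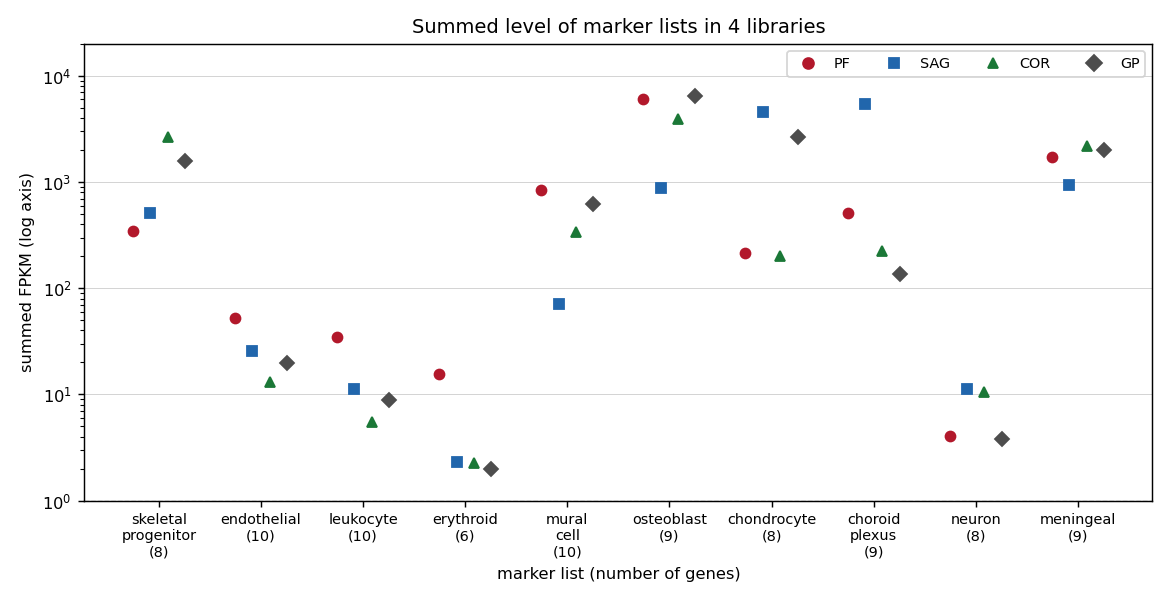
Summed FPKM (log axis) of 10 lists of cell type markers in the 4 libraries, 1 point per library, with the number of genes of each list in brackets. PF is highest for endothelial, leukocyte, erythroid, and mural cell markers, and SAG is highest for choroid plexus markers at 5429 and for chondrocyte markers at 4574.

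Base composition also moved with the ratios to PF, the shallowest library. The GC content of the longest transcript was 39.4% to 50.7% for the niche genes, 46.0% and 47.5% for *Pparg* and *Adipoq*, and 62.6% to 67.2% for the C/EBP genes. When each log2 ratio was corrected for GC content by a loess curve over all genes, a step chosen after the data were seen, the ratios of PF to SAG of the AT-rich *Angpt1* and *Lepr* went from 0.60 to 1.15 and from 1.04 to 1.52. Those of the GC-rich *Cebpb* and *Cebpd* went from -0.42 to -1.29 and from -2.06 to -2.86. *Cxcl12* barely moved, from 1.88 to 1.78 against SAG and by less than 0.05 against COR and GP. With the correction *Kitl* and *Angpt1* passed 3-fold between PF and COR, each at 1.94, and *Angpt1* passed between PF and GP at 1.96. Why the ratios moved with GC content was not tested.

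**Figure D5:**
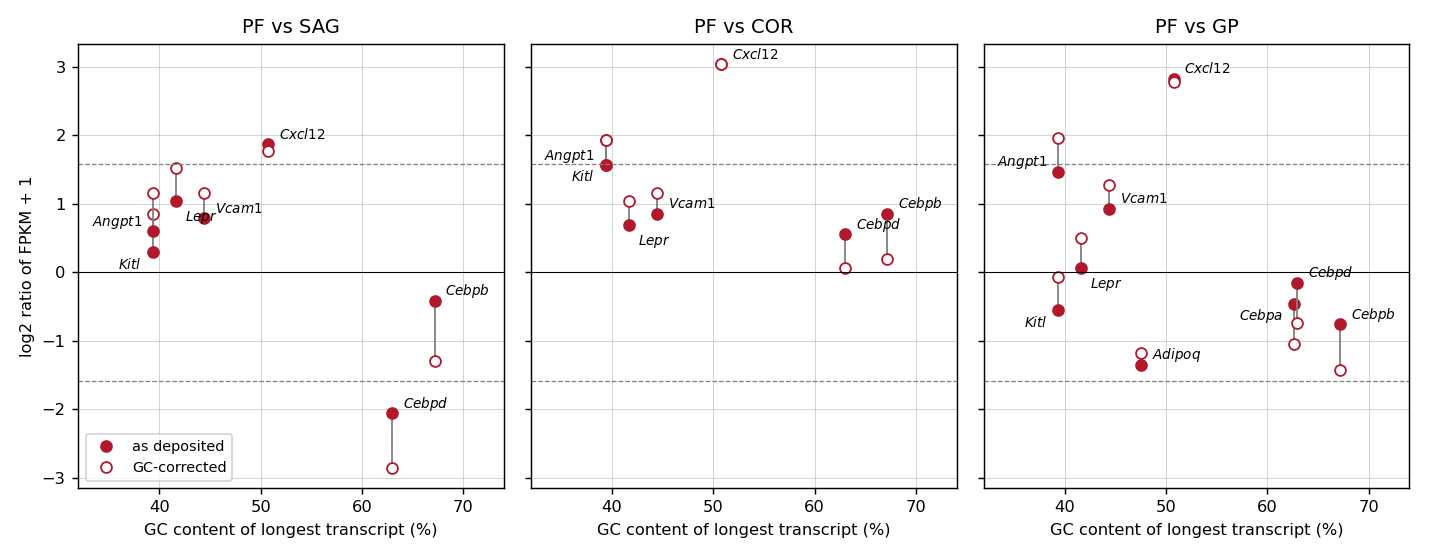
Log2 ratio of FPKM + 1 of PF to SAG, COR, and GP (3 panels) against the GC content of each gene's longest transcript in percent, with filled points as deposited, open points after the loess correction, and dashed lines at 3-fold. Genes of low GC content such as *Angpt1* shift up, the C/EBP genes shift down, and *Cxcl12*, at 50.7%, stays in place.

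The likeness of the patterns was described as the distance between log2(FPKM + 1) values centred on each gene's mean over the 4 libraries. The closest pair of members was *Kitl* and *Cebpb*, at a distance of 0.62, both lowest in COR and highest in GP. *Vcam1* and *Angpt1* followed at 0.74, then *Lepr* and *Cebpa* at 0.78, *Lepr* and *Vcam1* at 0.83, and *Adipoq* and *Cebpa* at 0.83. The member nearest to *Cxcl12* was *Angpt1*, at 1.20, and the farthest was *Adipoq*, at 3.11. With 4 libraries these distances are a description, and genes of small range lie close together by construction.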

How the data were processed

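RNA-seq was performed on 4 libraries of FACS-sorted CD51+;CD200+ cells, 1 each from PF, SAG, COR, and GP of CD-1 mice at postnatal day 3. Libraries were made with a low-input kit that does not mark strand. The authors aligned the read pairs to the mm9 genome with STAR 2.5.1b and ran Cuffdiff of the Cufflinks suite (2.2.1, per the labels) with the iGenomes gene model, and R 3.2.2 is named in the submitters' processing notes. Each deposited file lists 1 FPKM value for every gene symbol. How Cuffdiff scaled for library size, and the sequencing depth, were not given in the sources used here, so precision is known only as the relative depth read from the step between low values of FPKM times length (4811 genes of at least 1000 bases).

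The members were found by symbol. Members and gene lists were chosen with earlier results of these data known. Ratios are on the log2(FPKM + 1) scale where a gene reached 1 FPKM in either library, and 3-fold is the fold change the study used, there together with a significance test that was not made here. Named genes were the 10 members, *Leprot*, *Gapdh*, the sorting markers and, of each of 10 lists of related genes and 11 marker lists, the 3 genes of highest mean FPKM and up to 3 of widest range past 3-fold, beside defining markers at 0. *Tmem189* and *Gm17473* were named because they overlap members, and *Col1a1* and *Sparc*, and *Cxcr4*, *Itga4*, *Prrx1*, and *Runx2*, after their values were seen. The alternatives were pseudocounts of 0.1 and none, 3 other scalings, 3 other filters, and a background of protein-coding genes. A loess fit of the ratios on GC content (span 0.3, from genes of at least 5 FPKM, with values for 80.8% of symbols and for 10 of 10 members) and leaving out SAG or COR were added after the data were seen.

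Gene positions and transcripts are those of the GENCODE annotation of mm9, and promoters are from RefSeq (GRCm38.p6). Analyses were run in Python 3.11.15 (statsmodels 0.14.6, scipy 1.17.1, pandas 2.3.3, numpy 2.4.6, matplotlib 3.10.9), and the steps were tested on simulated data.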

Additional observations from a re-analysis of the deposited data

How the results depend on the processing

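No paired analysis was possible because the tissues have 1 library each, and for the same reason no replicate could be left out. Of 48 member ratios, 8 passed 3-fold as deposited. Of these, 0 changed direction and 5 stayed past it under each alternative that kept the gene. Those that did not were, between PF and SAG, *Cxcl12* (1.49 with quantile normalization) and *Cebpd* (-1.54 relative to *Gapdh*). The other was *Cebpb* between COR and GP (-1.57 with quantile normalization and -1.41 relative to *Gapdh*). Of the 5, *Cebpd* of SAG against COR and GP dropped out with protein-coding genes only. *Kitl* between COR and GP dropped out with FPKM of 1 or more in both libraries. *Cxcl12* of PF against COR and GP was kept and past 3-fold throughout. Another 6 ratios changed sign under an alternative, each of them small as deposited. Scaling to *Gapdh*, which was at 282 to 407 FPKM, shifted the median of all genes by up to 0.49. Counts of members past 3-fold are given with the share of all genes past 3-fold under the same setting. Between PF and SAG (2 as deposited) the count was 1 with quantile normalization (15.7%), with *Gapdh* (18.7%), and with protein-coding genes only (15.1%). Between PF and COR (1) it was 3 with a pseudocount of 0.1 (22.8%), with none (20.2%), with *Gapdh* (13.9%), and with the GC correction (11.2%). Between PF and GP (1) it was 3 with 0.1 (22.4%) and 2 with none (19.7%), *Gapdh* (14.4%), and the GC correction (11.5%). Between SAG and COR (1) it was 2 with 0.1 (15.8%), with none (15.1%), and with the GC correction (9.21%) and 0 with protein-coding genes only (9.15%). Between SAG and GP (1) it was 2 with 0.1 (14.8%) and 0 with protein-coding genes only (8.43%), since *Cebpd* is listed as a pseudogene. Between COR and GP (2) it was 3 with 0.1 (8.26%) and with none (8.04%) and 1 with quantile normalization (4.03%), with *Gapdh* (4.09%), and with FPKM of 1 or more in both libraries (2.5%). The median over members changed sign between PF and GP (-0.15), to 0.31 with *Gapdh* and 0.06 with FPKM of 5 or more or of 1 or more in both, and between SAG and GP (-0.35), to 0.13 with the same filters, which drop *Adipoq* and *Cebpa*. Members highest in GP were 5 without the SAG library, and no other such count moved without SAG or COR. Members highest in SAG were 2 without a filter, in COR 1 with quantile normalization, and in GP 2 with FPKM of 5 or more and 1 where every library had to reach 1 FPKM. Other causes were not tested.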
